A study of Mus musculus with 6 samples.

Results

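The genes described are the 33 that encode the enzymes of glycolysis and the proteins that decide what becomes of its end product, pyruvate, in hematopoietic stem cells (HSCs), the bone marrow cells that renew the blood. They were picked by symbol from the 24091 genes of the deposited count table, and all 33 were found there and had enough reads to be tested, among 13413 tested genes. RNA was sequenced from cells sorted as lineage-negative, Sca-1+, c-Kit+, CD150+ and CD48- from mice labelled wt, with no strain or sex given. The 3 aged libraries (aged 1 to aged 3) came from mice of 20 months and the 3 young libraries (young 4 to young 6) from mice of 2 months. Aged samples were pools from 4 mice and young samples pools from 30 mice. It is not stated if that means per pool or per age, so p-values cover only how far these pools differ, part of which may be technical. Each pool gave 1 library. The series belongs to a study of miR-126 and the vessels of the ageing bone marrow, and these libraries ask which RNAs of the stem cells differ with age.

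Glycolysis splits glucose into pyruvate in the cytosol. Hexokinase traps the sugar in the cell, phosphofructokinase commits it to breakdown, and pyruvate kinase makes the last step. Pyruvate is then either reduced to lactate by lactate dehydrogenase or carried into mitochondria and oxidised by the pyruvate dehydrogenase complex, which the pyruvate dehydrogenase kinases switch off. Many steps are run by several isoforms from separate genes that differ in regulation and in the tissues that use them. Mouse HSCs are known as cells of low oxygen surroundings that lean on glycolysis, and Pdk2 and Pdk4 have been studied there as brakes on pyruvate oxidation.

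Gene counts summed to between 18613386 and 20107812 in aged and between 16452829 and 21918658 in young pools. Reads of the 33 genes made up 0.571% to 0.691% of the counts in aged libraries, 0.325% in young 4, 0.567% in young 5 and 0.543% in young 6. Young 4 stood apart from the other young libraries. It was the lowest of the 6 libraries for 21 of the 33 genes (63.6%), against 35.3% of all tested genes, and the beta-actin gene Actb took 4.06% of its counts, against 0.555% to 1.36% in the other 5. The plot of log2 fold changes therefore shows each of the 33 genes also without young 4. The text gives that value for some genes only, not for every gene that moved. All 9 HSC marker genes examined were detected in every library, with a summed level of 2578 to 3194 CPM in aged and 1199 to 2234 CPM in young pools (CPM, counts scaled to the library total by the trimmed mean of M values, TMM). The 5 T and NK cell markers in the table summed to 17.7 to 46.1 CPM in aged and 103 to 186 CPM in young pools. Nkg7 made up most of that and fell, as did Cd4, while Cd3d, Cd3e and Cd3g stayed under 1 CPM in every library. The 6 B-cell markers summed to 59.4 to 87.0 CPM in aged and 73.5 to 133 CPM in young pools, mostly Cd79b, and Pax5 was at 0 in 5 of 6 libraries. The cell division markers summed to 739 to 1511 CPM in aged and 2578 to 3269 CPM in young pools. In such bulk samples, fewer cells of a type and less RNA per cell cannot be told apart.

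A hexokinase and an aldolase isoform stood out among otherwise modest differences. Hk3 and Aldoc rose in aged HSCs, 3.99-fold and 1.91-fold, and the other 31 genes did not pass the test. Hence 2 of 33 genes (6.06%) passed an adjusted p of 0.05 in the edgeR quasi-likelihood fit, both higher, against 5.76% of all tested genes (4.26% higher, 1.50% lower), a share near the background. Of all calls 74.0% were higher, but 58.6% with the gene length trend taken out, 54.5% with GC content and length taken out and 57.5% by DESeq2. By the edgeR test 0 of the 33 were lower. DESeq2 called 2 higher and 1 lower (Pfkfb1), against 9.36% and 6.90% of all tested genes. Limma-voom called 2 higher and 0 lower, against 4.32% and 1.77%, and with quality weights 7 higher and 5 lower, against 17.3% and 13.2%. At an unadjusted p under 0.05, 9 were higher (27.3%, against 13.9% of all tested genes) and 3 were lower (9.09%, against 11.1%), or 36.4% against 25.1% in all. The values of the age groups did not overlap for 8 genes that were higher in aged cells (24.2%, against 19.0% of all tested genes) and 4 that were lower (12.1%, against 17.6%), with 36.6% of all tested genes free of overlap in all. The median log2 fold change, aged minus young, was 0.26 over the 33 genes and 0.04 over all tested genes, with 23 positive (69.7%) among the 33 and 52.7% positive among all. The medians were 0.10 and -0.05 with GC content and length taken out. Without young 4 these medians were 0.11 and 0.04, and 3 of the 33 genes passed, all higher (Hk3, Aldoc and Hk2), with 4.93% of all tested genes higher and 2.54% lower. Without both young 4 and aged 2, 1 of the 33 passed (Hk3), against 3.21% higher and 1.60% lower.

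**Figure D1:**
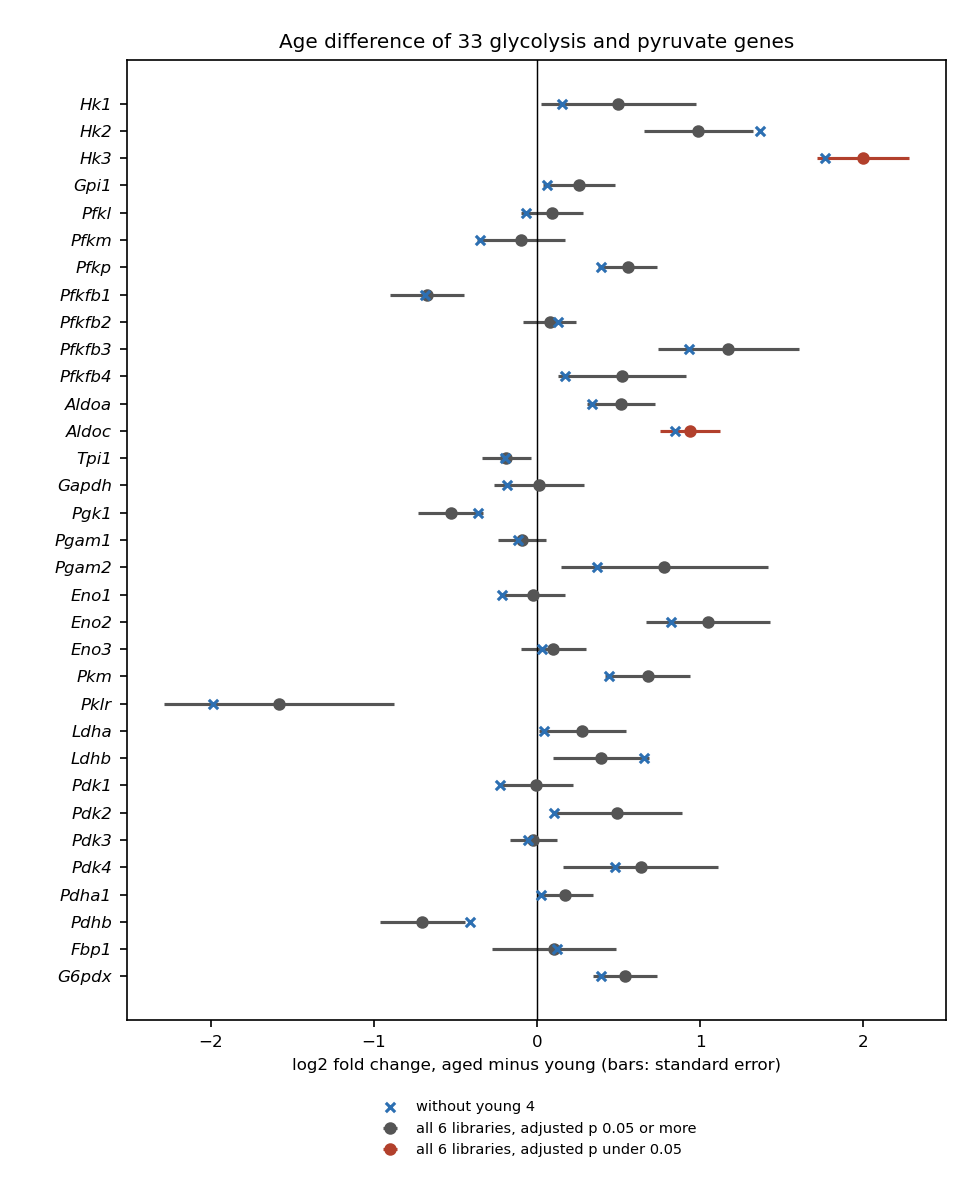
Log2 fold change (aged minus young, horizontal axis) of the 33 genes in pathway order, with standard errors; red points passed an adjusted p of 0.05 and crosses show the fit without young 4. Hk3 at 2.00 and Aldoc at 0.94 are the only red points, and for most genes the cross lies to the left of the point.

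**Figure D2:**
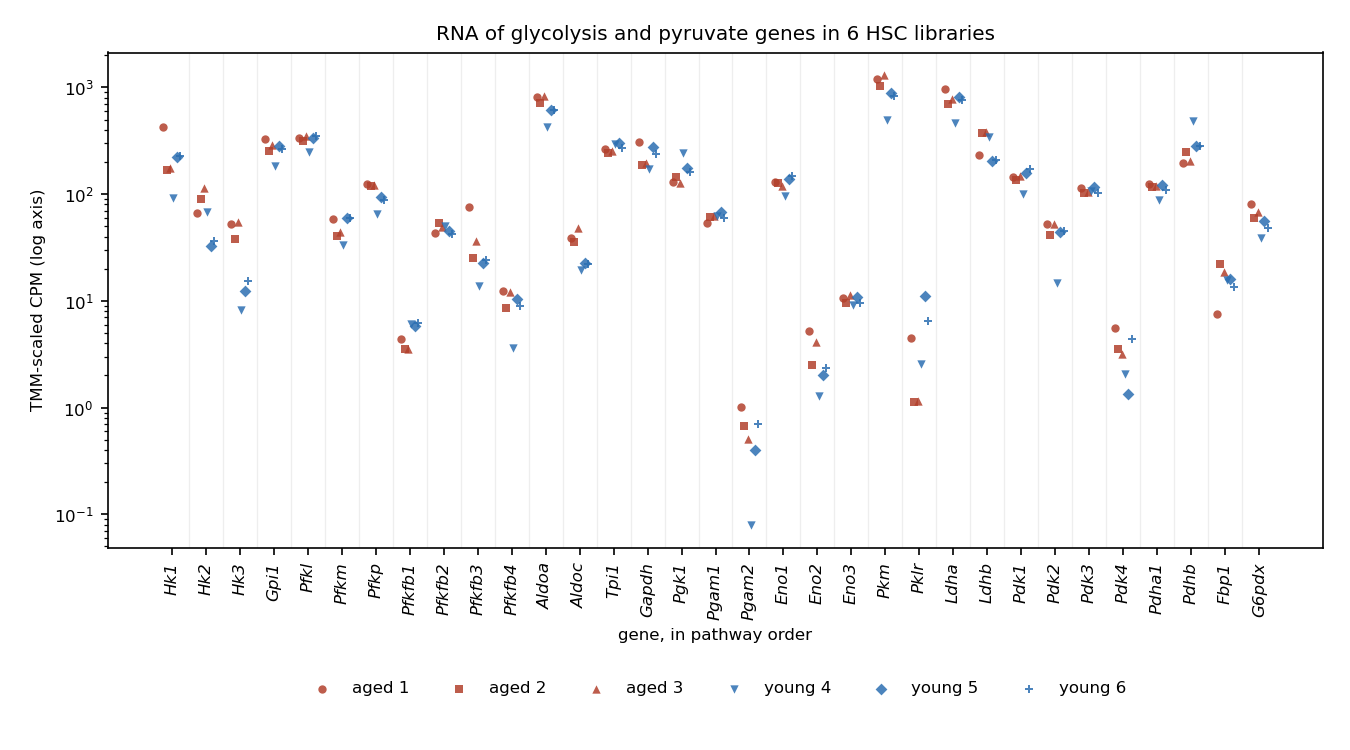
Level of each of the 33 genes in each library in TMM-scaled CPM (log axis), aged libraries in red and young in blue. The genes span from under 1 CPM for Pgam2 to 1306 CPM for Pkm in aged 3, and the downward triangle of young 4 is the lowest point of 21 genes.

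Hexokinases phosphorylate glucose, and here the isoforms differed in how they varied. Hk3, the isoform best known from myeloid blood cells (mm10 chromosome 13, 55005985 to 55021385, minus strand), had 52.4, 37.8 and 54.3 CPM in aged 1, 2 and 3, against 8.19, 12.5 and 15.4 CPM in young 4, 5 and 6. The lowest aged value was more than double the highest young one. It averaged 48.2 ± 9.02 CPM in aged and 12.0 ± 3.62 CPM in young pools (SD, n = 3 each), a log2 fold change of 2.00 ± 0.28 (SE; edgeR adjusted p = 0.0167). With each library left out in turn the fold stayed between 3.40 and 4.63, and the call was lost without aged 3 (adjusted p = 0.0715) or without young 5 (adjusted p = 0.0754). Its annotated span shares 34 bases with Unc5a on the opposite strand, and the library kit does not mark strand.

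Markers of the myeloid cells in which Hk3 is known were measured beside it. The 7 neutrophil markers summed to 4.36, 13.4 and 11.7 CPM in aged and 7.39, 11.6 and 7.50 CPM in young pools, with S100a8 and S100a9 under 2 CPM everywhere and Elane at 0 in young 4. The 7 macrophage markers summed to 309 to 347 CPM in aged and 280 to 374 CPM in young pools, most of it Lyz2, and Adgre1, which encodes F4/80, stayed under 2 CPM in all 6. Both sums overlapped between the ages, but not every single marker did. Vcam1 and C1qb of the macrophage list were lower in all aged than in all young pools. So were S100a8, S100a9 and Camp of the neutrophil list, each under 2 CPM in every library. The other markers of both lists overlapped, and none of the tested ones passed the edgeR test. Of the HSC markers, 5 of 9 rose, and all 3 multipotent progenitor markers fell. Their part in the Hk3 result was not tested.

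Hk2, the inducible hexokinase (chromosome 6, 82725027 to 82774454, minus strand), had 66.7, 91.0 and 114 CPM in aged 1, 2 and 3, against 68.1, 32.6 and 36.7 CPM in young 4, 5 and 6. Young 4 lay above aged 1, so the groups overlapped, and the log2 fold change of 0.99 ± 0.33 (SE) did not pass (adjusted p = 0.129 by edgeR). Without young 4 it was 1.37, a 2.58-fold rise with an adjusted p of 0.0323 by edgeR. Hk2 also passed in the edgeR fit with no scaling beyond library totals. Hk1, the housekeeping hexokinase that sits on mitochondria, had 425, 168 and 175 CPM in aged and 92.2, 224 and 227 CPM in young pools. Aged 1 alone was high and young 4 alone was low, and the log2 fold change was 0.50 ± 0.47 (SE; adjusted p = 0.517 by edgeR), 0.16 without young 4 and -0.08 without aged 1. The antisense gene Hk1os lies within it over 9260 bases, so some of these reads are uncertain.

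A start of the isoform that rose is shown beside a start of one that did not pass. The 250 bases before an annotated transcription start are printed from RefSeq, 5′ to 3′. They are given for Hk3 (GRCm38.p6, chr13:55021386-55021635, minus strand) and Hk1 (chr10:62379909-62380158, minus strand). Hk3 has 1 listed start and Hk1 has 2, of which 1 is shown. Capitals mark ACGTG or GCGTG, the core of the hypoxia response element, and GAGGAA, a core of sites of the myeloid factor PU.1, on either strand.
Hk3: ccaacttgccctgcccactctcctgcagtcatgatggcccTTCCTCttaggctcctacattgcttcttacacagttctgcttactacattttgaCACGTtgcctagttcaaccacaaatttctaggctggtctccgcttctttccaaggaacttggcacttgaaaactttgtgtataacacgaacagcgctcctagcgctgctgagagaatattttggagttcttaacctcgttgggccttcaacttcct
Hk1: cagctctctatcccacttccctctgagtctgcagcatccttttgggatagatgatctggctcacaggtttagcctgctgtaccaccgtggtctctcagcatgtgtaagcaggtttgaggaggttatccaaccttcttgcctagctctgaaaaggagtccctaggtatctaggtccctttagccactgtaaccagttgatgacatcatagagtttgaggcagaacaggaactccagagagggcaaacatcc
The Hk3 window holds 1 ACGTG and 1 GAGGAA and the Hk1 window holds 0 of either.

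Aldolases split the phosphorylated hexose into trioses. Aldoc, the isoform best known from brain (chromosome 11, 78323073 to 78327778, plus strand), had 39.1, 35.8 and 48.3 CPM in aged 1, 2 and 3, against 19.4, 22.6 and 22.3 CPM in young 4, 5 and 6. All aged values were above all young ones. It averaged 41.1 ± 6.48 CPM in aged and 21.4 ± 1.78 CPM in young pools (SD, n = 3 each), a log2 fold change of 0.94 ± 0.18 (SE; edgeR adjusted p = 0.0371). The call was less robust than its direction: the fold ranged from 1.75 to 2.00 with each library left out, but the adjusted p was 0.0413 without young 4 and 0.0733 to 0.144 without any other library. Aldoa, the ubiquitous isoform (chromosome 7, 126795234 to 126800447, minus strand), had 810, 719 and 830 CPM in aged and 426, 618 and 608 CPM in young pools. These groups did not overlap either, yet the log2 fold change of 0.51 ± 0.21 (SE) did not pass (adjusted p = 0.186 by edgeR), and it was 0.34 without young 4.

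The matching windows of Aldoc (chr11:78322823-78323072, plus strand) and Aldoa (chr7:126800448-126800697, minus strand) follow, with the same marks.
Aldoc: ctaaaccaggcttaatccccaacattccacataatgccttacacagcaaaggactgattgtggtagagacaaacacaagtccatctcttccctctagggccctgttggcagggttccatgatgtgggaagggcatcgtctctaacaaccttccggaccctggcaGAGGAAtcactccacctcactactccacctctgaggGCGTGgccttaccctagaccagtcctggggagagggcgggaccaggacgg
Aldoa: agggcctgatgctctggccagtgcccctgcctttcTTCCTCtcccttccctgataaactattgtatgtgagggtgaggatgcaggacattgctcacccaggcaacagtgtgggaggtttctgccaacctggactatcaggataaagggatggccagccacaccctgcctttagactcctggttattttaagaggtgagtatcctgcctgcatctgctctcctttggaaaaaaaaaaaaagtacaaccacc
The Aldoc window holds 1 GCGTG and 1 GAGGAA, and the Aldoa window holds 1 GAGGAA. Aldoc has 2 listed starts and Aldoa has 3, of which 1 each is shown. Over one window for each of the 33 genes, the start nearest to the end given in the table, 23 (69.7%) held ACGTG or GCGTG on either strand, against 38.6% of 32851 RefSeq windows of the same length. The E-box CACGTG, which contains ACGTG, stood in 3 of the 33 (9.09%, against 6.02%) and GAGGAA in 8 (24.2%, against 23.3%). Such matches describe letters and not binding, and 31 of the 33 genes did not pass the age test. The 32851 windows were not limited to tested genes or to 1 window a gene, and they were not matched for GC content.

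**Figure D3:**
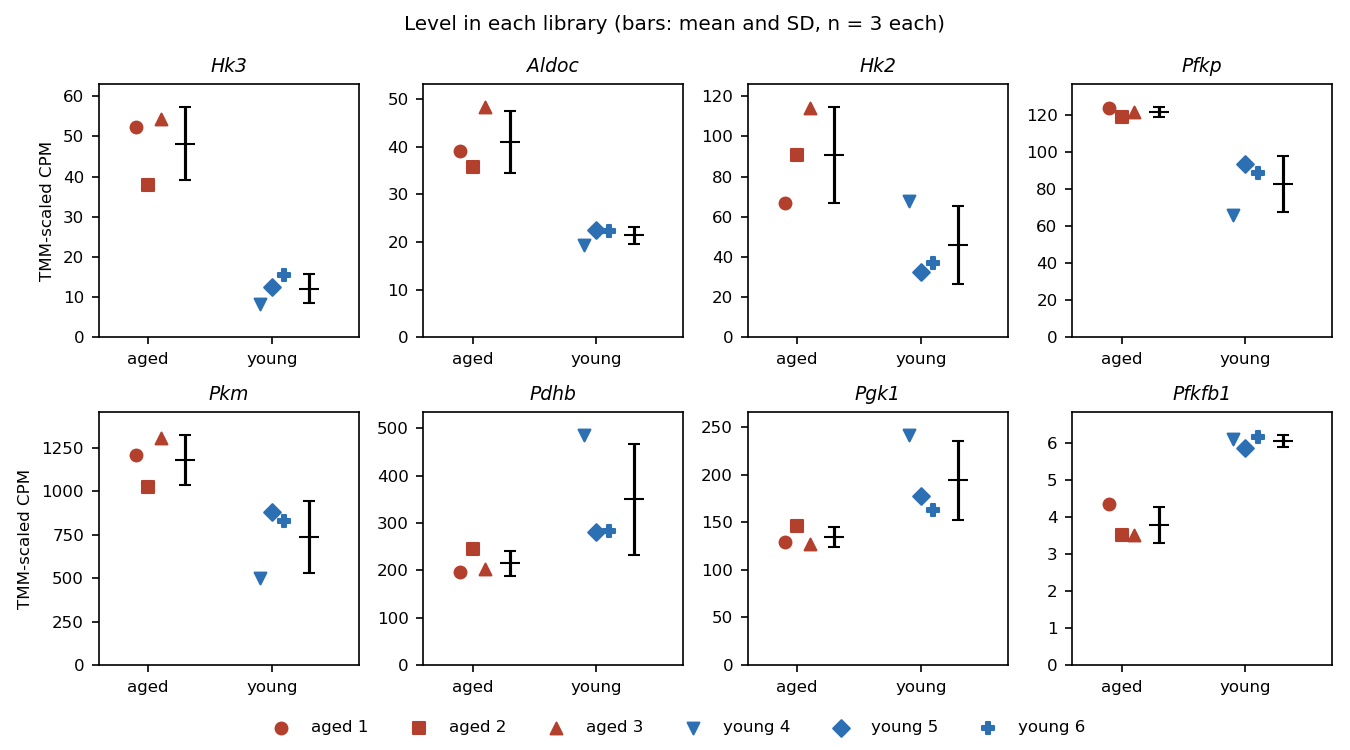
TMM-scaled CPM of 8 genes in each library, aged left and young right, with group means and SDs (n = 3 each) as bars. Hk3, Aldoc, Pfkp and Pkm lie higher and Pdhb, Pgk1 and Pfkfb1 lower in all aged than in all young libraries, whereas the Hk2 value of young 4 overlaps the aged group.

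Phosphofructokinase makes the committing step. Pfkp, the platelet-type isoform (chromosome 13, 6579874 to 6648771, minus strand), had 124, 119 and 122 CPM in aged 1, 2 and 3, against 65.7, 93.6 and 88.9 CPM in young 4, 5 and 6. The aged libraries were tightly grouped above all young ones, and the log2 fold change was 0.55 ± 0.18 (SE; adjusted p = 0.115 by edgeR) and 0.39 without young 4. Its span shares 276 bases with Pitrm1 on the opposite strand. Pfkl, the liver-type and most abundant isoform here, averaged 331 ± 18.0 CPM in aged and 310 ± 55.2 CPM in young pools. Pfkm, the muscle type, averaged 47.8 ± 9.03 in aged and 51.0 ± 15.3 CPM in young pools (SD, n = 3 each for both genes). Neither passed, with adjusted p-values of 0.771 and 0.835 by edgeR, and 981 bases of Pfkm overlap Senp1 on the opposite strand.

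The PFKFB enzymes make and break the sugar diphosphate that stimulates phosphofructokinase. Pfkfb3, the isoform that strongly favours making it, had 75.8, 25.1 and 36.2 CPM in aged 1, 2 and 3, against 13.7, 22.9 and 24.1 CPM in young 4, 5 and 6. Aged 1 carried most of the difference and aged 2 was barely above young 6, with a log2 fold change of 1.17 ± 0.43 (SE; adjusted p = 0.155 by edgeR). Without aged 1 the fold was 1.51, against 2.25 with all libraries. Pfkfb1, the liver-type isoform, was low everywhere, with 4.36, 3.51 and 3.53 CPM in aged and 6.12, 5.88 and 6.18 CPM in young pools. The groups did not overlap, and the log2 fold change of -0.67 ± 0.23 (SE) had an adjusted p of 0.129 by edgeR and 0.0296 by DESeq2. Pfkfb2 averaged 48.7 ± 5.54 CPM in aged and 46.1 ± 4.15 CPM in young pools, and Pfkfb4, whose log2 fold change was 0.52 with all libraries and 0.17 without young 4, averaged 11.0 ± 2.15 in aged and 7.66 ± 3.55 CPM in young pools (SD, n = 3 each). Neither of them passed.

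The steps of the isomerases, GAPDH, phosphoglycerate kinase and mutase, and enolase hold 9 of the 33 genes, and none of these 9 passed the edgeR test. For 3 of the 9 the groups did not overlap, which is no more than the background of 36.6% of all tested genes. Pgk1, an X-linked gene whose enzyme makes the pathway's first ATP (X chromosome, 106187100 to 106203699, plus strand), had 130, 146 and 127 CPM in aged 1, 2 and 3, against 241, 177 and 163 CPM in young 4, 5 and 6. All aged values were below all young ones, by a log2 fold change of -0.53 ± 0.20 (SE; adjusted p = 0.156 by edgeR). Tpi1, which interconverts the trioses, had 266, 244 and 254 CPM in aged and 295, 304 and 272 CPM in young pools, again without overlap but with a log2 fold change of only -0.19 ± 0.15 (SE; adjusted p = 0.451 by edgeR). Gapdh had 310, 187 and 194 CPM in aged and 170, 278 and 236 CPM in young pools, a spread within each age that left a log2 fold change of 0.01 ± 0.28 (SE). Its 11 listed pseudogenes together held up to 6.11% of its counts, so its level depends on how copies were counted.

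Gpi1, the isomerase, averaged 290 ± 37.3 CPM in aged and 242 ± 53.3 CPM in young pools (SD, n = 3 each), a log2 fold change of 0.26 that was 0.06 without young 4. Pgam1, the main phosphoglycerate mutase, averaged 59.3 ± 4.61 in aged and 63.1 ± 4.16 CPM in young pools, while its muscle isoform Pgam2 stayed at or under 1.01 CPM, with a log2 fold change of 0.78 that was 0.37 without young 4 and 1.46 without young 6. Eno1, the main enolase, averaged 125 ± 5.12 CPM in aged and 127 ± 27.2 CPM in young pools, and its retrotransposed copy Eno1b had up to 8.35% of its counts, so reads of these copies may be split. Eno2, the neuronal enolase, had 5.23, 2.53 and 4.13 CPM in aged and 1.27, 2.04 and 2.37 CPM in young pools, without overlap and with a log2 fold change of 1.05 ± 0.38 (SE; adjusted p = 0.151 by edgeR). Eno3, the muscle enolase, averaged 10.5 ± 0.952 in aged and 9.82 ± 0.841 CPM in young pools.

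Pyruvate kinase makes pyruvate and ATP. Pkm, which carried the most reads of the 33 genes (chromosome 9, 59656368 to 59679375, plus strand), had 1209, 1023 and 1306 CPM in aged 1, 2 and 3, against 499, 881 and 829 CPM in young 4, 5 and 6. Every aged value was above every young value, but the log2 fold change of 0.68 ± 0.26 (SE) did not pass (adjusted p = 0.167 by edgeR), and it was 0.44 without young 4. Gene counts do not separate its splice forms. Pklr, the liver and red cell isoform, had 4.46, 1.14 and 1.16 CPM in aged and 2.54, 11.1 and 6.53 CPM in young pools, a log2 fold change of -1.58 ± 0.70 (SE; adjusted p = 0.215 by edgeR). Aged 1 was above young 4, so the groups overlapped. Leaving out aged 1 moved the log2 fold change to -2.55 and leaving out young 5 moved it to -1.03, neither past the threshold (adjusted p = 0.103 and 0.409 by edgeR), and without young 4 it was -1.99. The red cell genes measured beside it did not move as one, and 0 of 7 passed. Car1, a red cell carbonic anhydrase, showed 54.6, 11.0 and 9.47 CPM in aged and 38.5, 209 and 94.3 CPM in young pools. The globin gene Hba-a2 went the other way, with 15.8, 36.5 and 45.0 CPM in aged and 3.34, 12.0 and 3.07 CPM in young pools, and Hbb-bs likewise, with 17.5, 35.2 and 43.0 CPM in aged and 3.26, 11.9 and 1.89 CPM in young pools. All 7 markers summed to 2344 to 2966 CPM in aged and 1939 to 2885 CPM in young pools, mostly Car2. Their part in the Pklr values was not tested.

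Lactate dehydrogenase converts pyruvate and lactate into each other, and neither isoform separated the ages. Ldha, the isoform that favours lactate (chromosome 7, 46845804 to 46855627, plus strand), had 973, 706 and 771 CPM in aged 1, 2 and 3, against 460, 804 and 756 CPM in young 4, 5 and 6. Ldhb (chromosome 6, 142490249 to 142507957, minus strand) had 233, 377 and 386 CPM in aged and 344, 206 and 210 CPM in young pools. Both genes overlapped between the ages, with log2 fold changes of 0.28 ± 0.26 and 0.39 ± 0.29 (SE) and adjusted p-values of 0.517 and 0.417 by edgeR. For Ldhb, young 4 was the only young library above the lowest aged value. With each library left out in turn, the log2 fold change ran from 0.04 to 0.42 for Ldha. For Ldhb it ran from 0.26 to 0.66, and neither gene passed in these fits. Per length, the ratio of Ldha to Ldhb came to 2.82, 1.26 and 1.35 in aged 1, 2 and 3, against 0.903, 2.63 and 2.44 in young 4, 5 and 6. Aged 1 thus sat with young 5 and young 6, and young 4 below aged 2 and aged 3. Of the 6 megakaryocyte markers, Itga2b, Gp1bb and Gp9 were also higher in aged 1, young 5 and young 6 than in the other libraries. Itga2b, which encodes a platelet integrin, had 562, 116 and 119 CPM in aged and 100, 313 and 399 CPM in young pools. Gp1bb had 66.2, 27.6 and 16.4 CPM in aged and 38.3, 82.9 and 86.6 CPM in young pools. Gp9 had 85.3, 41.7 and 46.5 CPM in aged and 24.2, 57.5 and 65.9 CPM in young pools. Vwf, with 208, 117 and 179 CPM in aged and 51.0, 81.7 and 81.0 CPM in young pools, did not follow that pattern. The platelet chemokine genes did not follow that pattern: Pf4 had 322, 100 and 22.9 CPM in aged and 479, 438 and 530 CPM in young pools, and Ppbp fell, with 5.47, 6.30 and 6.22 CPM in aged and 38.7, 21.6 and 20.6 CPM in young pools (adjusted p = 0.0160 by edgeR). The sum of all 6 markers was 1249, 409 and 390 CPM in aged and 731, 995 and 1183 CPM in young pools, so young 4 lay above aged 2 and aged 3 in the sum. Higher values in aged 1, young 5 and young 6 were not particular to megakaryocyte markers. Hk1, Gapdh, Tkt, the red cell genes Klf1, Car1 and Epor, and the cell division marker Mcm2 showed them too. Mcm2 had 246, 106 and 94.4 CPM in aged and 109, 292 and 271 CPM in young pools. Other genes of those lists, such as Hba-a2 and Mcm4, did not. The part of any of these genes in the ratio was not tested.

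The control of pyruvate entry into mitochondria showed no gene called by edgeR. Among the pyruvate dehydrogenase kinases, Pdk1 averaged 143 ± 6.03 CPM in aged and 144 ± 37.7 CPM in young pools, and Pdk3 averaged 106 ± 6.18 in aged and 108 ± 7.76 CPM in young pools (SD, n = 3 each). Pdk2 had 52.2, 41.5 and 52.8 CPM in aged and 14.7, 44.0 and 45.4 CPM in young pools, so that only young 4 was clearly low. Its log2 fold change was 0.49 ± 0.40 (SE; adjusted p = 0.453 by edgeR) and 0.11 without young 4. Pdk4 stood at 5.51, 3.51 and 3.20 CPM in aged and 2.07, 1.35 and 4.38 CPM in young pools, with an adjusted p of 0.419 by edgeR and a log2 fold change of 0.63 that was 1.27 without young 6.

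The enzyme that these kinases switch off is built of alpha and beta subunits. Neither gene passed the edgeR test, though limma-voom with quality weights called Pdhb. Pdhb, the beta subunit (chromosome 14, 8165991 to 8172992, minus strand), had 196, 246 and 203 CPM in aged 1, 2 and 3, against 485, 280 and 284 CPM in young 4, 5 and 6. All aged values were below all young ones, and the log2 fold change was -0.70 ± 0.26 (SE; adjusted p = 0.155 by edgeR) and -0.41 without young 4. Pdha1, the X-linked alpha subunit, averaged 120 ± 4.17 CPM in aged and 107 ± 17.7 CPM in young pools (SD, n = 3 each), with an adjusted p of 0.543 by edgeR. The ratio of Pdha1 to Pdhb per length was 0.328, 0.244 and 0.308 in aged 1, 2 and 3, against 0.0935, 0.226 and 0.201 in young 4, 5 and 6. The ratio was higher in every aged than in every young library; it was chosen after its values were seen and was not tested.

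At the branch points, G6pdx, the X-linked gate of the pentose phosphate pathway, had 80.4, 59.9 and 67.6 CPM in aged 1, 2 and 3, against 39.2, 55.9 and 47.9 CPM in young 4, 5 and 6. The groups did not overlap and the log2 fold change was 0.54 ± 0.20 (SE; adjusted p = 0.152 by edgeR). Its interval overlaps Ikbkg on the opposite strand over all its 19676 bases, so some of its reads are uncertain. Fbp1, which runs the phosphofructokinase step backwards in glucose synthesis, had 7.58, 22.1 and 18.8 CPM in aged and 15.7, 15.9 and 13.4 CPM in young pools, with aged 1 lowest and an adjusted p of 0.874 by edgeR.

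Isoform composition was compared as each gene's share of its family's summed level per length, which does not depend on the scaling between libraries. Hk3 made up 19.0%, 23.0% and 27.5% of hexokinase RNA in aged 1, 2 and 3, against 9.27%, 9.73% and 11.4% in young 4, 5 and 6. Hk1 and Hk2 varied widely within each age: Hk1 held 66.6% in aged 1 but 38.2% in aged 3, and 45.1% in young 4 but 75.3% in young 5. Pfkp made up 20.1% ± 0.716 of phosphofructokinase RNA in aged and 15.2% ± 0.597 in young pools, and Pfkl remained the main isoform at 67.9% ± 1.66 in aged and 70.8% ± 1.57 in young pools (SD, n = 3 each). Among the PFKFB genes, Pfkfb1 held 12.7% ± 1.94 in aged and 26.4% ± 3.62 in young pools, and Pfkfb3 held 43.1% ± 13.1 in aged and 26.4% ± 4.86 in young pools.

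As a share, Aldoc stayed small, at 3.19% ± 0.316 of aldolase RNA in aged and 2.45% ± 0.310 in young pools (SD, n = 3 each). Pklr held 0.236% ± 0.193 of pyruvate kinase RNA in aged and 1.05% ± 0.460 in young pools. Ldhb held 37.7% ± 9.98 of lactate dehydrogenase RNA in aged and 36.4% ± 14.0 in young pools, and Pdk3 was the largest of the kinases at 55.5% ± 1.83 in aged and 60.9% ± 9.62 in young pools. For 9 isoforms, 1 a family, the difference in share was tested by a two-sided exact permutation test, which cannot go below p = 0.1 with 3 libraries against 3. Pfkp, Pfkfb3, Aldoc and Pklr reached that smallest p (0.225 adjusted over the 9 families), Eno1, Pgam2, Pdk1, Hk2 and Ldhb did not (0.36 to 1 adjusted), and no share could therefore pass.

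**Figure D4:**
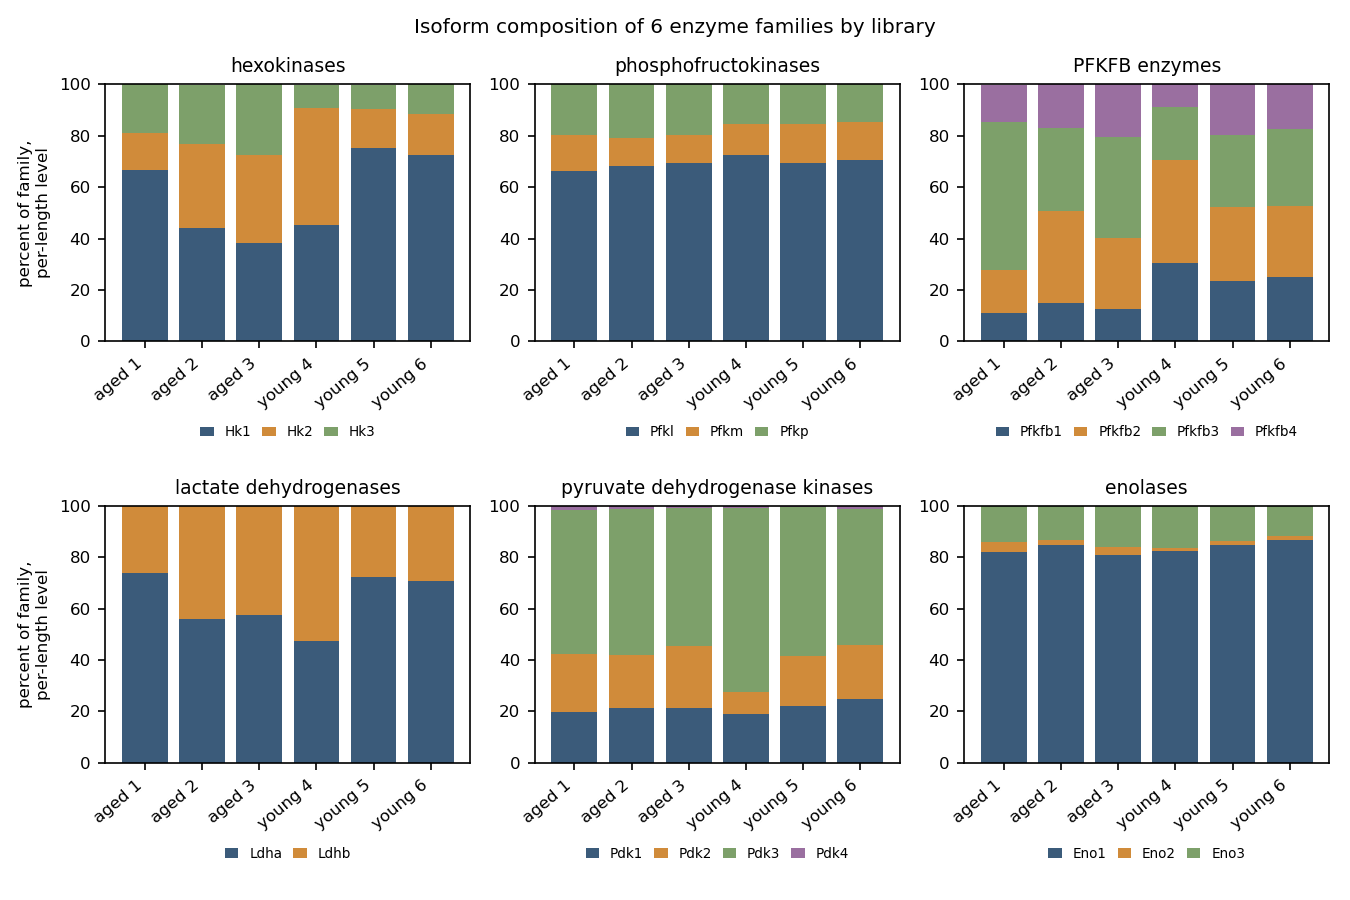
Percent of the summed level per length (vertical axis) held by each isoform of 6 families in each library, aged libraries left of young ones. The Hk3 segment is 19.0% to 27.5% in aged and 9.27% to 11.4% in young pools, while the Ldha to Ldhb split groups aged 1 with young 5 and young 6.

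Per length, the most abundant of the 33 RNAs were Aldoa at 434 ± 32.6 CPM per kb in aged and 304 ± 59.7 in young pools, Ldha at 425 ± 72.5 in aged and 351 ± 97.2 in young pools, and Pkm at 339 ± 41.5 in aged and 212 ± 59.5 in young pools (SD, n = 3 each). Aldoa and Ldha differed by less than the SD of Ldha at both ages. Ldhb followed at 256 ± 66.4 in aged and 195 ± 60.5 in young pools, and Hk3 stood at 14.8 ± 2.78 in aged and 3.70 ± 1.12 in young pools. At the bottom, Pgam2 stood at 0.808 ± 0.280 in aged and 0.435 ± 0.344 in young pools.

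The neighbouring pathways were examined as 7 lists of 91 genes, of which 80 were tested. In all, 4 rose and 0 fell by edgeR's quasi-likelihood test, against 4.26% of all tested genes higher and 1.50% lower, and 8 of 80 were higher and 6 of 80 lower at an unadjusted p under 0.05, both below the background shares of 13.9% and 11.1%. The counts of higher and lower genes were 6 and 5 by DESeq2 (9.36% and 6.90% of all tested genes), 4 and 0 by limma-voom (4.32% and 1.77%), and 9 and 13 once quality weights were added (17.3% and 13.2%). Ldhd, which encodes the mitochondrial dehydrogenase of D-lactate, had 50.5, 22.0 and 39.3 CPM in aged 1, 2 and 3, against 3.34, 3.74 and 4.95 CPM in young 4, 5 and 6, a 9.23-fold rise (adjusted p = 0.00908 by edgeR). All aged values were far above the young ones, and the call held with each library left out except young 5 (adjusted p = 0.0512). It was the only one of 11 tested genes on the list of other glycolysis and gluconeogenesis genes that passed.

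Of 10 tested genes of glycogen metabolism, Pygm, the muscle-type glycogen phosphorylase, rose 3.84-fold, with 70.6 ± 14.8 CPM in aged and 18.3 ± 6.22 CPM in young pools (SD, n = 3 each; adjusted p = 0.0212 by edgeR). Leaving out aged 1, aged 3 or young 5 ended that call. Gyg, which primes glycogen chains, had 139 ± 6.30 in aged and 106 ± 7.31 CPM in young pools and did not pass. Of 15 hypoxia and Myc regulators, Epas1 and Mlxipl rose. Epas1, a hypoxia-inducible factor subunit, had 8.34, 4.44 and 9.56 CPM in aged and 0.795, 1.89 and 2.02 CPM in young pools, a 4.64-fold rise (adjusted p = 0.0384 by edgeR). Mlxipl, the glucose-sensing factor ChREBP, had 1.05, 0.826 and 0.836 CPM in aged and 0.159, 0.0498 and 0 CPM in young pools, a total of 3 young reads, so no fold is given. Without aged 1, aged 2, aged 3, young 5 or young 6, Epas1 and Mlxipl each lost their call. Hif1a, named for its role and not by the rule, averaged 71.1 ± 5.22 CPM in aged and 75.7 ± 7.70 CPM in young pools (adjusted p = 0.726 by edgeR).

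No gene of the other 4 lists passed in the edgeR fit. Of 9 tested transport genes, the glucose transporter gene Slc2a3 had 350 ± 41.0 CPM in aged and 196 ± 55.8 CPM in young pools (adjusted p = 0.0971), and Slc16a7, which carries pyruvate and lactate, had 4.79 ± 0.747 in aged and 8.65 ± 1.34 CPM in young pools (adjusted p = 0.0857). At an unadjusted p under 0.05, 1 was higher and 1 lower, and DESeq2 called both. The 20 genes of the TCA cycle had a median log2 fold change of -0.31, and of -0.23 without young 4. Over all tested genes the median was 0.04 in both fits. With all 6 libraries, 4 of the 20 were positive, against 52.7% of all tested genes. At an unadjusted p under 0.05 by edgeR, 4 of the 20 were lower, against 11.1%. Idh3a had 182 ± 11.6 CPM in aged and 282 ± 57.8 CPM in young pools, and Mdh2 had 542 ± 62.3 in aged and 812 ± 104 CPM in young pools. DESeq2 called 3 of the 20 lower, against 6.90% of all tested genes, limma-voom 0, against 1.77%, and limma-voom with quality weights 6, against 13.2%. Of the rest of the pyruvate dehydrogenase complex, Pdhx, which anchors dihydrolipoamide dehydrogenase in the complex, had 45.0 ± 4.95 CPM in aged and 65.3 ± 4.12 CPM in young pools (adjusted p = 0.0915 by edgeR), with 1 of 8 lower at an unadjusted p under 0.05 and by DESeq2. Of 7 pentose phosphate genes, 1 was higher at an unadjusted p under 0.05 and DESeq2 called 0.

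**Figure D5:**
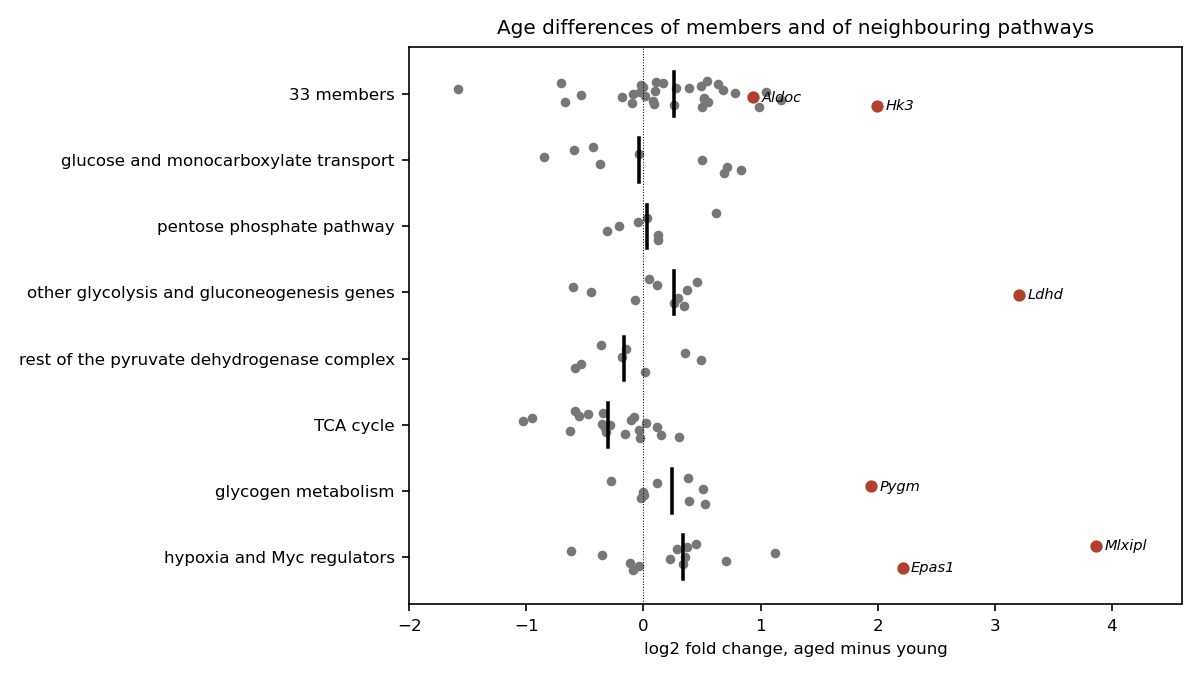
Log2 fold change (aged minus young, horizontal axis) of the 33 genes and of the tested genes of 7 neighbouring lists; red points passed an adjusted p of 0.05 and black bars are medians. Ldhd, Pygm, Epas1 and Mlxipl are the called genes outside the 33, and the TCA cycle has the lowest median at -0.31. The position of Mlxipl rests on 3 young reads.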

How the data were processed

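Libraries came from a SMART-Seq v4 kit, per the labels, a chemistry that keeps no strand, and were read as single ends. The submitters' processing notes name Trimmomatic, STAR 2.6.0, HTSeq 0.11.1, edgeR and mm10; their settings and the annotation were not stated. The authors deposited unscaled whole-number counts per gene, and each of 6 count columns was assigned by its name. The gene length in the deposited table gave levels per kb.

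Counts were fitted with edgeR 4.0.16 (R 4.3.3; filterByExpr, TMM, glmQLFit, glmQLFTest) with age as the only term, and p-values were adjusted by Benjamini-Hochberg over 13413 genes. The script was tested on simulated data. Young 4 to 6 share no replicate number with aged 1 to 3. The members and lists were chosen with earlier results of these data known. Named genes are all 33 members and, of each neighbouring list, up to 4 called or 2 uncalled genes with the smallest p. Alternatives used other scalings and filters, DESeq2 1.42.0, limma-voom (limma 3.58.1), omitted libraries, removal of genes above 1% of a library, and offsets for trends by length or by GC content (GENCODE transcripts) and length, as splines with 4 degrees of freedom. Limits from counts cover counting error only.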

Additional observations from a re-analysis of the deposited data

How the results depend on the processing

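No paired analysis was possible because the aged libraries carry the numbers 1 to 3 and the young ones 4 to 6. Of all tested genes 571 were higher and 201 lower in aged cells. The count of higher genes was 363 with at least 5 CPM in 3 libraries, 1255 by DESeq2, 2326 by limma-voom with quality weights, and 71 to 679 with each library left out. The count of lower genes was 133 with no scaling, 342 with no filter, 80 with at least 5 CPM, 926 by DESeq2, 1768 with quality weights, 369 and 598 with the length and the GC and length trends taken out, and 3 to 350 with each library left out.

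Of the 33 genes, 7 were higher with quality weights, 1 without young 4 and aged 2, and 0 to 3 with each library left out, while 1 was lower by DESeq2 and 5 with quality weights. The genes called with quality weights were Aldoa, Aldoc, Hk2, Hk3, Ldhb, Pdhb, Pfkfb1, Pfkm, Pfkp, Pgk1, Pklr and Pkm. Of the neighbouring genes, 0 to 5 were higher and 0 to 1 lower with each library left out, and 5 were lower by DESeq2. Aldoc lost its call with no scaling (adjusted p = 0.0562 by edgeR) and without young 4 and aged 2 (adjusted p = 0.0520). With no scaling, Hk2 gained a call and Hk3 kept its call. Gapdh turned to -0.35 with quality weights. In shares of counts without length, Pfkp differed by 5.64 and Aldoc by 1.14 percentage points, aged minus young, against 4.90 and 0.745 per length. The causes were not tested. The median log2 fold change of all genes was 0.04, but 0.20 with no scaling and 0.11 with upper-quartile scaling. A count of 3, the limit that a count of 0 allows, is 0.132 to 0.239 CPM.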
